A study of Homo sapiens with 6 samples.

Results

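Small nucleolar RNAs (snoRNAs) and small Cajal body RNAs (scaRNAs) were examined in 22RV1 cells, a human cell line of castration-resistant prostate cancer (CRPC). The members were all rows of the deposited expression tables whose symbol starts with SNORA, SNORD or SCARNA and whose mean over the 6 samples was at least 1 FPKM (fragments mapped, scaled by transcript length and library size). This rule kept 71 of 385 such rows: 43 SNORA, 24 SNORD and 4 SCARNA rows. 22RV1 cells in medium with serum received either DMSO, the vehicle (3 samples), or 10 nM bruceantin (BCT), a plant-derived quassinoid (3 samples), for 24 h. No genotype or drug other than these separates the groups. The labels do not say that the samples came from separate cultures, so p-values measure the spread between these samples, which may be technical.

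H/ACA box snoRNAs, which carry the SNORA symbols, guide pseudouridylation of ribosomal RNA, and C/D box snoRNAs, with SNORD symbols, guide its 2'-O-methylation. A few act in cleavage of the ribosomal precursor. The scaRNAs carry the same boxes and guide modification of spliceosomal RNAs in Cajal bodies. Most human members are cut out of introns of host genes and are bound by a set of core proteins, among them dyskerin (DKC1) in H/ACA particles and fibrillarin (FBL) in C/D particles. Mature snoRNAs carry no poly(A) tail, whereas the library kit used here selects polyadenylated RNA, and the RNA was purified on silica columns, which recover short RNA poorly. The values below are therefore what such a library holds of these RNAs.

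The sequences of the RNAs on which the results turn follow, read from GRCh37 (the build of hg19), with the defining boxes in capitals. In H/ACA RNAs the capitals mark ACA with 2 to 4 bases after it at the 3' end, and in C/D RNAs and SCARNA12 they mark TGATGA in the first 30 bases and CTGA in the last 20. SNORA76C (chr17:62223699-62223831, + strand) and SNORA2A (chr12:49050431-49050565, - strand) were listed at 0 in every BCT sample. SNORA8 (chr11:93465527-93465665, - strand) and SNORA70 (chrX:153628622-153628756, + strand) were lower with BCT, and SNORA81 (chr3:186504464-186504641, + strand) was higher. SNORD17 (chr20:17943353-17943589, - strand) and SCARNA12 (chr12:7076500-7076769, - strand) were above 0 in all samples, and SNORD20 (chr2:232321155-232321234, - strand) had the highest values.
SNORA76C: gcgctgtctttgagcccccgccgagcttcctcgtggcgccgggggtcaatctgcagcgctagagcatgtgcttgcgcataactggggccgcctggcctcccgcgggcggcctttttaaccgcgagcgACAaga
SNORA2A: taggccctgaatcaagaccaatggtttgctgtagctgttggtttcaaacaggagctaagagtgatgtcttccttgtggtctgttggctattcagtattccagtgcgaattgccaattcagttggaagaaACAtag
SNORA8: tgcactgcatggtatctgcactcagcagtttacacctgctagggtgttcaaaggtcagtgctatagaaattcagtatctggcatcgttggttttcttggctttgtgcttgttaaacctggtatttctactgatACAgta
SNORA70: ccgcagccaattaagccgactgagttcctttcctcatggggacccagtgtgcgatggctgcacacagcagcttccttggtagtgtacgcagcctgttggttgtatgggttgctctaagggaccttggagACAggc
SNORA81: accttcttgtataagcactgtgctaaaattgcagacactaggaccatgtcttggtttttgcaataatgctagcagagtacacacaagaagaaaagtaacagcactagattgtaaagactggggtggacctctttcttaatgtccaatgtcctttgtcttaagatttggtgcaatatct
SNORD17: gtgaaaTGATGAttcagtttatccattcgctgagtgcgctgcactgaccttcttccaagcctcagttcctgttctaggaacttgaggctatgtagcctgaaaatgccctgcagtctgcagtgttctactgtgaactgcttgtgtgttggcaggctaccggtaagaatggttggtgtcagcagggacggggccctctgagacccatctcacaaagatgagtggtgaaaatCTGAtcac
SNORD20: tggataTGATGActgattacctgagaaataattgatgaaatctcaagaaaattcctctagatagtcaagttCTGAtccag
SCARNA12: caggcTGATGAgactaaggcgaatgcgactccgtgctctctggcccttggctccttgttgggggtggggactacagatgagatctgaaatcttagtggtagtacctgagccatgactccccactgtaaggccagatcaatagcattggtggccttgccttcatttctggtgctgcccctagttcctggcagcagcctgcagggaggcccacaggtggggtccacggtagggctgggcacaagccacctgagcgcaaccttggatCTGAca
The ACA tail was found in 32 of 36 H/ACA members that could be placed on the genome, and in 70 of 83 H/ACA rows searched (84.3%). None of 83 held both C/D boxes. Both boxes were found in 10 of 18 C/D members of known position and strand and in 150 of 205 C/D rows (73.2%), of which 8 had an ACA tail. Only the strand of each RNA was searched, and some placed rows were left out, among them those on alternative chromosome sequences. SNORA81 had no ACA at that place in the annotated window, and a missing match says only that the letters are not there.

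The cells carried markers of the line. HOXB13, KRT8, KRT18 and TMPRSS2 were at 3.55 FPKM or more in all samples, KLK2 and KLK3 ranged from 0.863 to 13.7 FPKM, and PTPRC, CD3E, PECAM1 and VWF were at 0.067 FPKM or less. COL1A1 was listed at 1.23 to 1.55 FPKM in the DMSO samples against 5.04 to 6.31 FPKM with BCT. The FPKM of a sample summed to 1169650 to 1572320 with DMSO and to 757534 to 799838 with BCT, and MIR6087 alone made up 43.5% to 55.3% and 31.7% to 32.5% of it. How many fragments stand behind a value is not given, since FPKM carries no counts. Values were used as deposited.

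Most of these RNAs were not seen at all, and the classes differed in how often they were. Of the 385 rows, 282 were listed at 0 in all 6 samples. An FPKM above 0 in any sample was found in 62 of 106 SNORA rows (58.5%), in 25 of 255 SNORD rows (9.80%) and in 16 of 24 SCARNA rows (66.7%). The C/D rows are shorter, with a median of 79 bases against 134 for H/ACA rows. Within C/D rows, those above 0 had a median length of 97 bases and those at 0 a median of 77 bases. The part of length in these shares was not tested.

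The filter itself depended on length. Of the rows above 0 anywhere, 96% of SNORD rows passed a mean of 1 FPKM, against 69.4% of SNORA rows and 25% of SCARNA rows. Among the 15 members of 65 to 100 bases, all C/D, the lowest value above 0 was 70.2 FPKM and the highest 2185 FPKM, and 12 of the 15 were above 0 in 1 sample alone. Among the 48 members of 121 to 149 bases, the values above 0 ran from 1.74 to 37.8 FPKM. The 5 members of 177 to 330 bases ran from 0.309 to 14.3 FPKM and were above 0 in all 6 samples, whereas rows under the filter were at 0 in some samples at such lengths too, as was SCARNA7 (330 bases, above 0 in 2 samples). Over all 71 members, 25 were above 0 in 1 sample, 12 in 2, 9 in 3, 6 in 4, 8 in 5 and 11 in all 6. The rows nearest the threshold show its effect: just inside stood SCARNA10 (mean 1.001), SNORA49 (1.05) and SNORA52 (1.06), the latter pair each above 0 in 1 sample, and just outside SNORA71A (0.98), SCARNA4 (0.95) and SNORA19 (0.93).

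**Figure D1:**
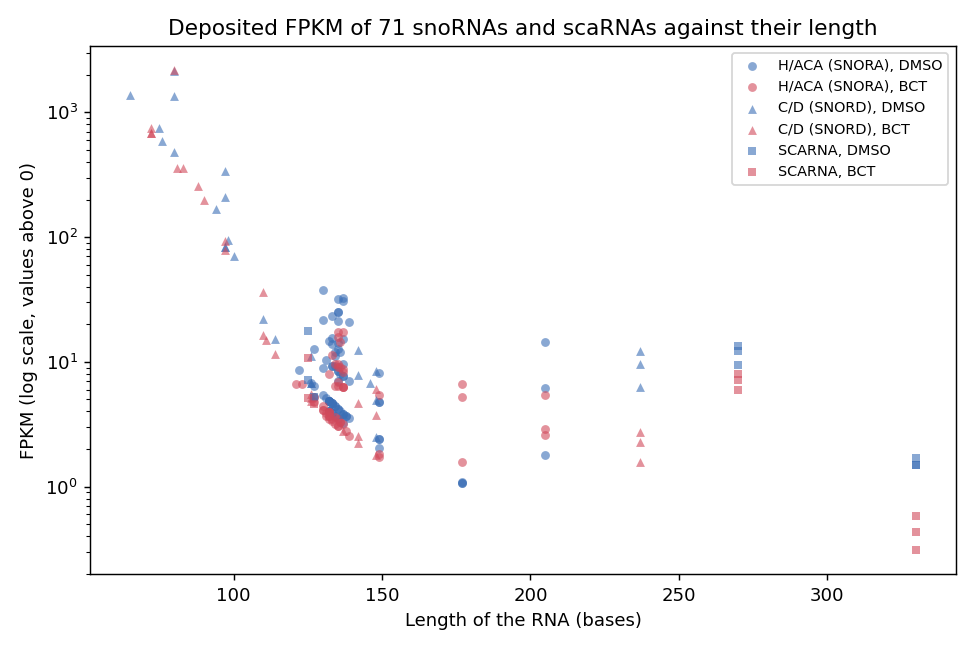
FPKM above 0 (log scale) of the 71 members in each sample against the length of the RNA in bases, with DMSO samples in blue and BCT samples in red; circles are H/ACA, triangles C/D and squares SCARNA. Values of short C/D RNAs reach 2185 FPKM, and the lowest values of RNAs of 121 to 149 bases form a band that falls with length.

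The values of the short members fell on steps. Members of equal length often had exactly the same FPKM in a sample: SNORA63 and SNORA70, both of 135 bases, were both listed at 25.235 in DMSO replicate 2, and SNORD36A and SNORD68, both of 72 bases, were both at 686.885 in BCT replicate 3. Of 102 pairs of members of equal length that were above 0 in the same sample, 31 had the same value. For lengths of 121 to 151 bases, one step per sample and length was found such that 163 of 167 values above 0 (97.6%), rows under the filter included, were a whole multiple of it within 0.05 of a step. At 135 bases the step was 3.53, 4.21 and 4.21 FPKM in the DMSO samples and 3.45, 3.04 and 3.19 FPKM in the BCT samples. If fragments were counted whole, a step is the value of 1 fragment, but the files do not say so. A step was smaller in each BCT sample than in any DMSO sample, so that equal numbers of steps read as a lower FPKM with BCT.

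Counted in steps, the members rest on few steps. In 46 members of this length range all values were whole, and 80 of their 143 values above 0 were exactly 1 step. The largest was 10 steps, for SNORA67 in DMSO replicate 1. Over the 6 samples, 4 of the 46 members had 1 step in all, 21 had 2 or 3, 9 had 4 to 9 and 12 had 10 or more. SNORA43 and SNORA64 had values between steps and were left out of these counts.

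The H/ACA members had more steps with DMSO than with BCT. Their steps summed to 55, 60 and 48 in the DMSO samples and to 29, 24 and 34 in the BCT samples. Of the 43 H/ACA members, 17 were at 0 throughout 1 group and passed the filter through the other alone. Those of them with whole steps are in these sums, such as SNORA76C with 12 steps against 0. A few members weigh much: SNORA67 had 22 steps with DMSO against 8 with BCT, SNORA61 13 against 2, and SNORA65 3 against 9. The gap between the sums is therefore no test of the class. The 5 C/D members of the range summed to 12, 8 and 2 steps with DMSO and to 5, 4 and 5 with BCT. Of the 46 members, 30 had more steps with DMSO, 9 had more with BCT and 7 had the same number. In rows above 0, the H/ACA members showed 22, 30 and 27 of 43 in the DMSO samples and 20, 16 and 18 in the BCT samples, and the C/D members 9, 11 and 8 of 24 against 9, 8 and 10. The members were chosen by their mean over these same samples and are not replicates, so these sums and counts are descriptions.

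Each row was then compared between 3 BCT and 3 DMSO samples with limma on log2(FPKM + 0.1), two-sided, over all 12729 rows with a mean of at least 1 FPKM. Calls required a log2 fold change beyond 0.85 in either direction and a Benjamini-Hochberg adjusted p below 0.05. Of the 71 members, 14 were called lower, 2 higher and 55 not called. The share called lower was 19.7%, against 17.8% of all rows tested, and the share called higher was 2.82%, against 13.9%. Of the H/ACA members, 11 of 43 were lower and 1 higher (25.6% and 2.33%), of the C/D members 2 and 1 of 24 (8.33% and 4.17%), and of the SCARNA members 1 and 0 of 4. Of the 14 called lower, 6 were at 0 in every BCT sample and so passed the filter through the DMSO samples alone. Of the 2 called higher, SNORD36A was at 0 in every DMSO sample and so passed it through the BCT samples alone. The 2 groups of samples did not overlap in 14 members, whereas they did not overlap in 85.3% of all rows tested. Of these 14, 13 were lower and 1 higher with BCT, beside 44.3% and 41% of all rows. Overlap was judged on FPKM, and in steps some of the 14 tie or overlap between groups, such as SNORA48 and SNORA70. At this FDR the lower count of members is near the share of all rows. The members were measured less precisely than other rows, with a median standard error of 1.63 on the log2 scale against 0.0757 over all rows tested.

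The median log2 fold change was -1.88 for H/ACA, -0.53 for C/D and -0.55 for SCARNA members, beside -0.04 for all rows. These medians include 32 members with 1 group listed at 0 throughout, whose fitted change depends on the pseudocount. Over the 39 members above 0 in at least 1 sample of each group, the median was -0.62, and 31 of the 39 were below 0. These 31 include the 7 members with the same number of steps in both groups, as a step was smaller in each BCT sample. For the 26 H/ACA members among them it was -0.73, for the 9 C/D members -0.43 and for the 4 SCARNA members -0.55. Of the 39, 11 were above 0 in all 6 samples, and the fitted changes of the others still depend on the pseudocount. SNORA6, for example, was at -1.72 with the pseudocount of 1 and at -5.99 with 0.01. With equal FPKM sums, where the median of all rows was 0.72, the H/ACA median was -1.52 and the C/D median 0.076. The order of the H/ACA and C/D medians turned with a mean of at least 5 FPKM (-1.91 against -2.59) and without BCT replicate 2 (-1.23 against -1.79), and both were -2.03 without BCT replicate 3. The SCARNA median was 0.10 with equal FPKM sums, 0.11 without DMSO replicate 1 and 0.027 without BCT replicate 1. No test of H/ACA against C/D was made, since members that share a library are not replicates.

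The H/ACA RNAs listed at 0 in every BCT sample and above 0 in every DMSO sample were SNORA76C, SNORA9 and SNORA2A, and no member showed the opposite pattern. SNORA76C stood at 15.5, 23.2 and 13.9 FPKM with DMSO, that is 4, 5 and 3 steps. SNORA9 (3.88, 4.63 and 4.64 FPKM) and SNORA2A (3.53, 4.21 and 4.22 FPKM) were at 1 step in each DMSO sample. For the latter pair, then, the groups differ by 1 step in each sample. No fold or p is given for these 3, which passed the filter through the DMSO samples alone and whose spread within the BCT samples is 0. SNORA22, SNORA51 and SNORA84 were also called lower with BCT at 0, each on 1 step in 2 of the 3 DMSO samples, and their groups overlap.

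SNORA8, SNORA61 and SNORA6 were called lower and did not overlap between groups in FPKM. In steps, DMSO replicate 3 and BCT replicate 2 of SNORA8 tie at 1. SNORA8 was at 20.8, 7.03 and 3.53 FPKM in the DMSO samples against 0, 2.55 and 0 with BCT, that is 7, 2 and 1 steps against 0, 1 and 0 (log2 fold change -4.77, standard error 1.23, adjusted p = 0.0063, limma). SNORA61 was at 8.99, 21.6 and 37.8 FPKM against 4.43, 0 and 4.08, or 2, 4 and 7 steps against 1, 0 and 1 (log2 fold change -3.98, standard error 1.35, adjusted p = 0.0229, limma). The DMSO samples of both span a wide range, and the highest SNORA8 sample is not the highest SNORA61 sample. SNORA6 was at 2.04, 4.78 and 4.79 FPKM against 0, 0 and 1.82, where the DMSO sample at 1 step stands just above the BCT sample at 1 step (log2 fold change -3.79, standard error 1.05, adjusted p = 0.0091, limma). Without DMSO replicate 2 or DMSO replicate 3, and at an FDR of 0.01, SNORA61 was not called. With robust variance moderation none of SNORA8, SNORA61 and SNORA6 was called, at adjusted p of 0.0574, 0.116 and 0.0676 (limma).

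SNORA70, which guides pseudouridylation of the small-subunit rRNA and had the highest mean among H/ACA members, was above 0 in every sample. It stood at 31.8, 25.2 and 21.1 FPKM in the DMSO samples against 17.3, 9.12 and 15.9 FPKM with BCT (log2 fold change -0.91, standard error 0.24, adjusted p = 0.00698, limma). In steps the samples were at 9, 6 and 5 against 5, 3 and 5, so that the lowest DMSO sample and both higher BCT samples had the same number. Its call was lost without DMSO replicate 1 (-0.76) and without BCT replicate 2 (-0.63), and when the samples were scaled to equal FPKM sums with MIR6087 (-0.15) or without it (-0.53).

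SNORA63 and SNORA67 were the other H/ACA members with the highest means. SNORA63 was at 14.1, 25.2 and 8.44 FPKM with DMSO and 3.45, 3.04 and 9.56 with BCT, and was called lower although BCT replicate 3 lies above DMSO replicate 3 (log2 fold change -1.61, standard error 0.48, adjusted p = 0.0135, limma). Its call was lost without DMSO replicate 2 or BCT replicate 2, at an FDR of 0.01, and with robust moderation (adjusted p = 0.0843, limma). SNORA67 was not called at 32.3, 15.4 and 30.8 FPKM against 6.29, 0 and 17.5 (log2 fold change -3.48, standard error 1.62, adjusted p = 0.0765, limma), and it was called with the pseudocount of 1 (-2.34), with equal FPKM sums (-2.86), with the replicate block (-3.48) and without any one of the BCT samples (-1.23 to -4.96). The highest BCT sample of SNORA67 lies above the lowest DMSO sample. SNORA48 was at 7.06, 12.6 and 8.44 FPKM against 6.90, 3.04 and 6.37, which do not overlap, and was not called (log2 fold change -0.82, standard error 0.32, adjusted p = 0.0395, limma). In steps it was at 2, 3 and 2 against 2, 1 and 2, so the lower DMSO samples and the higher BCT samples had the same number.

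SNORA81 was the member called higher whose groups did not overlap. It stood at 1.09, 1.07 and 1.08 FPKM in the DMSO samples against 5.25, 1.58 and 6.58 FPKM with BCT (log2 fold change 1.73, standard error 0.44, adjusted p = 0.0062, limma). The DMSO samples lie together, and BCT replicate 2 is much nearer to them than to the other two. SNORA4, which lies in an intron of the same host gene, EIF4A2, was at 9.69, 3.84 and 3.85 FPKM against 6.29, 8.33 and 8.73 and was not called (0.55, standard error 0.33, adjusted p = 0.153, limma).

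**Figure D2:**
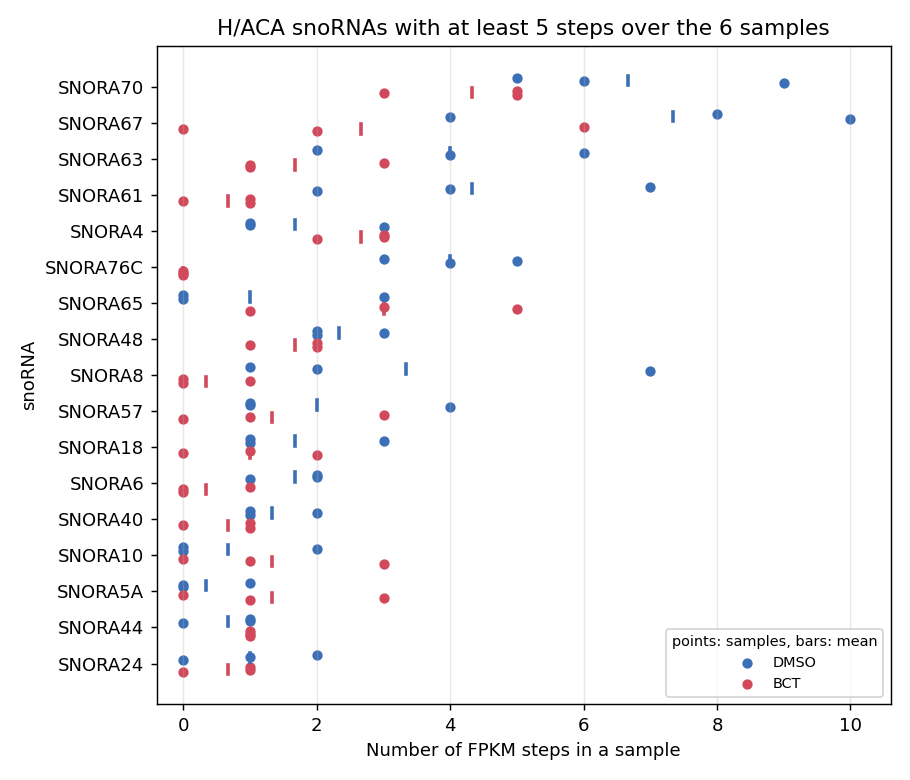
Number of FPKM steps in each sample (horizontal axis) for the H/ACA members with at least 5 steps over the 6 samples, with DMSO in blue and BCT in red; each point is 1 sample and each bar a group mean. SNORA76C has 3 to 5 steps in the DMSO samples and 0 in the BCT samples, while the groups overlap or touch in most others.

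SNORD17, the longest of the C/D members at 237 bases, was called lower without overlap. It was at 6.24, 12.1 and 9.66 FPKM in the DMSO samples against 2.74, 1.569 and 2.27 FPKM with BCT (log2 fold change -2.02, standard error 0.26, adjusted p = 1.08e-04, limma). Every BCT sample lies below every DMSO sample. Its call held in each alternative, from -1.28 with equal FPKM sums to -2.29 without DMSO replicate 1.

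The C/D members with the highest means were short RNAs seen in few samples. SNORD20, in an intron of the nucleolin gene NCL, was at 1348, 2149 and 482 FPKM in the DMSO samples against 2185, 0 and 0 with BCT. It was called lower (adjusted p = 0.0426, limma), yet its highest value is a BCT sample, and leaving out any sample other than BCT replicate 1 took the call away, as did the pseudocount of 1. SNORD36A was called higher on values of 744, 0 and 687 FPKM with BCT and 0 throughout with DMSO. It passed the filter through the BCT samples alone, so no fold or p is given for it. Its call was lost when any sample other than BCT replicate 2 was left out. Neither SNORD20 nor SNORD36A was called with no filter, at an FDR of 0.01 or with robust moderation. SNORD24, which lies in RPL7A like SNORD36A, was above 0 only in DMSO replicate 2 (745 FPKM), and SNORD29 only in DMSO replicate 3 (1371 FPKM). SNORD88B was at 84.0, 337 and 210 FPKM against 92.4, 79.1 and 0 and was not called (adjusted p = 0.115, limma), except without BCT replicate 1 (-6.01) and with equal FPKM sums (-3.72).

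Of 15 snoRNAs known to act in cleavage of the ribosomal precursor that were listed, SNORD22 and SNORA73B were members. The other 13 had no row under these symbols and were not analysed here. SNORD22 (U22) stood at 11.1, 6.73 and 6.74 FPKM with DMSO and 5.55, 4.84 and 5.08 FPKM with BCT, which do not overlap (log2 fold change -0.62, standard error 0.18, adjusted p = 0.0119, limma, not called). In steps it was at 2, 1 and 1 against 1, 1 and 1, so that 5 of the 6 samples had the same number. SNORA73B (U17b) was at 6.13, 14.3 and 1.79 FPKM against 2.92, 2.61 and 5.45 and was not called (log2 fold change -0.63, standard error 0.64, adjusted p = 0.378, limma), except without DMSO replicate 3 (-1.41). With equal FPKM sums SNORD22 was at 0.14 and SNORA73B at 0.11.

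SCARNA10 and SCARNA12 were above 0 in all samples. SCARNA10 (U85), a guide for the U5 spliceosomal RNA, was at 1.489, 1.499 and 1.695 FPKM in the DMSO samples against 0.309, 0.43 and 0.585 FPKM with BCT (log2 fold change -1.65, standard error 0.23, adjusted p = 1.77e-04, limma). The groups lie far apart against their spread, and the row passed the filter by little. With the pseudocount of 1 its change was -0.83, under the fold limit. SCARNA12 (U89) was at 9.39, 12.1 and 13.4 FPKM against 8.03, 7.18 and 5.99, which do not overlap (log2 fold change -0.71, standard error 0.15, adjusted p = 0.0019, limma, not called), and with equal FPKM sums it was at 0.053. Without DMSO replicate 1 it was called (-0.85). SCARNA15 was at 1 step in DMSO replicate 1 and BCT replicate 2 alone, and SCARNA22 at 3, 1 and 0 steps against 0, 1 and 2.

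**Figure D3:**
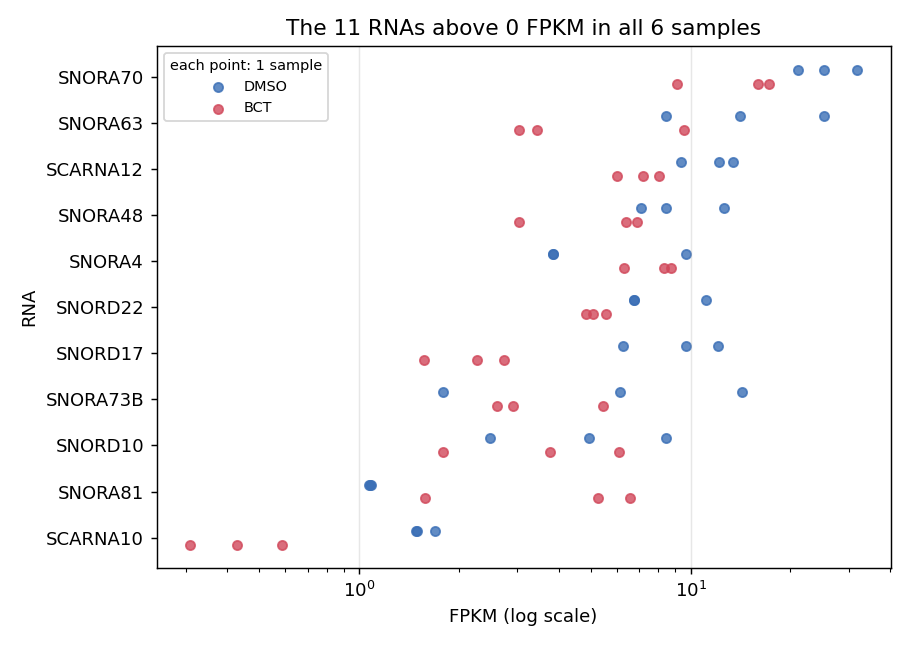
FPKM (log scale) of the 11 members above 0 in all 6 samples, with each point 1 sample, DMSO in blue and BCT in red. SNORD17, SCARNA10, SCARNA12, SNORA70, SNORA48 and SNORD22 lie lower in every BCT sample as deposited and SNORA81 higher, while the groups overlap in the other 4.

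Of the 11 members above 0 in all samples, 9 had a log2 fold change below 0, with a median of -0.71, beside -0.04 for all rows. Each BCT sample had a smaller step. In steps, DMSO against BCT, SNORA70 summed to 20 and 13, SNORA63 to 12 and 5, SNORA48 to 7 and 5, SNORD10 to 7 and 6, SNORD22 to 4 and 3, and SNORA4 to 5 and 8. With equal FPKM sums SCARNA12, SNORD22 and SNORA73B were above 0 and SNORA70 was at -0.15, while SNORD17 (-1.28), SCARNA10 (-0.98) and SNORA63 (-0.86) stayed lower. These are the members for which a change does not depend on a value listed at 0. The exceptions, SNORA4 and SNORA81, lie in EIF4A2, and SNORA63, deposited at the same locus, was called lower (-1.61).

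Most members lie inside a longer gene, and reads from that gene cannot always be told from the small RNA. A host row was found for 61 of the 71 members, 49 genes in all, with 54 members in an intron and 2 in an exon of the canonical transcript and 5 matched by a shared locus. Of the 49 host genes, 16 were called lower and 5 higher, with a median log2 fold change of -0.64. These are 32.7% and 10.2% of the host genes, against 17.8% and 13.9% of all rows tested. For the 34 members with a host row that were above 0 in some sample of each group, the member's change was set against its host's. The member's log2 fold change minus its host's had a median of -0.34 and was below 0 in 23. Where a member was at 0 in a sample, its difference depends on the pseudocount. Members in 1 gene share that gene's value, as do SNORA8, SNORA18, SNORA25, SNORA32 and SNORA40 in TAF1D. The library was not stranded, so reads from both strands of such a locus are counted together.

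In some cases host and member had like values. The ribosomal protein gene RPL10 fell by 0.92, next to -0.91 for SNORA70 in its intron. NCAPD2, a condensin subunit gene, fell from 80.9 ± 3.52 to 32.8 ± 2.69 FPKM (mean ± SD of n = 3 per group), a change of -1.30 beside -1.65 for SCARNA10, and PHB2 was at -0.56, not called, beside -0.71 for SCARNA12. The translation factor gene EIF4A2 rose by 1.14 beside 1.73 for SNORA81. SNORA76C differs from these cases, since it was at 0 in every BCT sample while its host was not. By the gene annotation SNORA76C lies within an exon of the noncoding RNA gene SNHG25, but its deposited locus is its own. Whether the deposited value of SNHG25 covers these bases was not tested. SNHG25 stood at 112, 60.0 and 39.6 FPKM in the DMSO samples against 16.6, 14.3 and 30.04 with BCT (log2 fold change -1.74, standard error 0.38, adjusted p = 0.00282, limma). The strand of SNORA76C was taken from SNHG25, since none is given for it.

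In other cases the host's value was further from the member's, or the member was at 0 in a group. SNORA9 shares its locus with the noncoding RNA gene SNHG15, which rose by 1.42, and SNORA2A lies in KANSL2 (log2 fold change 0.66, not called). TAF1D, the host of SNORA8, was at 29.9 ± 1.13 FPKM with DMSO and 37.5 ± 4.03 FPKM with BCT (mean ± SD of n = 3 per group; 0.32, not called). SNHG1, at whose locus SNORD22 and SNORD29 lie, was not called at 0.81. The laminin receptor gene RPSA, host of SNORA6, fell by 1.08, against -3.79 for SNORA6. SNX5, host of SNORD17, was at -0.44 and not called, against -2.02 for SNORD17. NCL, host of SNORD20, was at -0.70 and not called, and RPL7A, host of SNORD24 and SNORD36A, fell by 0.94. The difference between member and host was not tested.

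**Figure D4:**
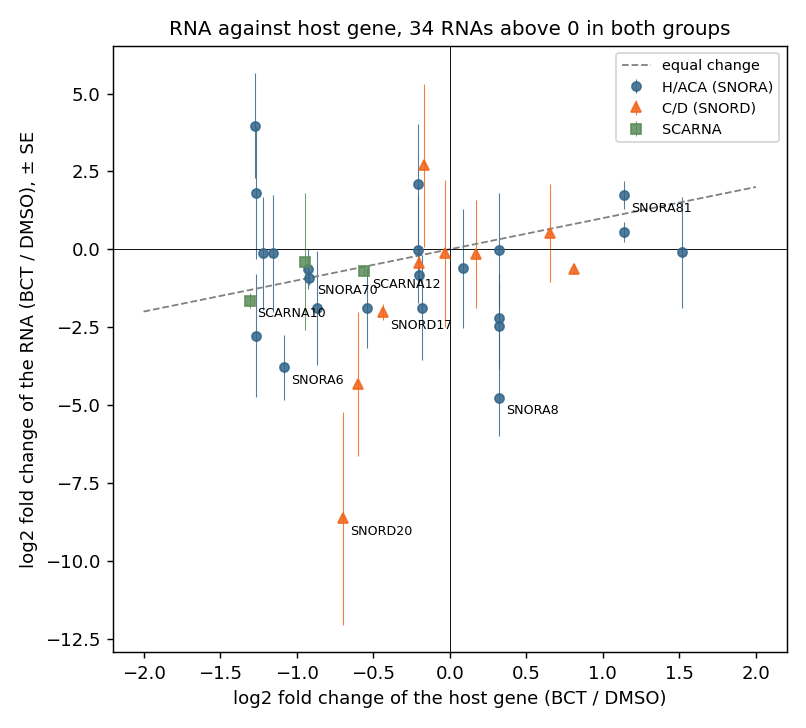
Log2 fold change (BCT over DMSO) of 34 members above 0 in some sample of each group against that of their host genes. Vertical bars are standard errors and the dashed line marks equal change. SNORA70, SCARNA10 and SCARNA12 lie near the line and SNORD17 and SNORA8 well below it.

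The mRNAs that encode proteins of these particles and of their processing were measured far more evenly than the small RNAs. Protein levels are not part of these data. Of 31 symbols listed, NHP2L1 and SNU13 name the same gene, and 29 were tested. FBL and NHP2 were called lower and NUFIP1, XRN1 and EXOSC10 higher, 24 were not called, and the median was 0.02. The shares called were 6.9% lower and 10.3% higher, against 17.8% and 13.9% of all rows. FBL, the methyltransferase gene of C/D particles, fell from 303.6 ± 5.78 to 158.2 ± 9.95 FPKM (mean ± SD of n = 3 per group, log2 fold change -0.94, adjusted p = 1.86e-06, limma). The other C/D core genes were NOP56 (-0.37), NHP2L1 (-0.38) and NOP58 (0.003).

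NHP2, a core protein gene of H/ACA particles, fell from 300.1 ± 8.12 to 160.6 ± 16.2 FPKM (mean ± SD of n = 3 per group, log2 fold change -0.91, adjusted p = 7.1e-06, limma). The pseudouridine synthase gene DKC1 was at -0.49, NOP10 at -0.34 and GAR1 at 0.01, and none of these was called. Of 10 assembly factors, 1 was called: NUFIP1, an adaptor in C/D particle assembly, rose from 6.46 ± 0.26 to 13.1 ± 0.691 FPKM (mean ± SD of n = 3 per group; 1.01, adjusted p = 2.13e-06, limma). ZNHIT6 was at 0.77 and NOLC1 at -0.41, not called. With limma none of 4 Cajal body genes tested was called, although 3 of them passed the adjusted p alone, with COIL, the coilin gene, at 0.70 and PHAX at 0.75. SMN1 was listed at 0 in all samples.

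Of 7 genes of maturation and decay, EXOSC10, a nuclear exosome exonuclease, and XRN1, a cytoplasmic exonuclease, were called higher. EXOSC10 rose from 36.5 ± 0.392 to 73.4 ± 5.9 FPKM (mean ± SD of n = 3 per group; 1.002, adjusted p = 2.41e-06, limma) and XRN1 from 4.32 ± 0.463 to 8.35 ± 0.899 FPKM (mean ± SD of n = 3 per group; 0.93). DBR1, the lariat debranching enzyme gene, was at 0.17 and XRN2 at -0.30, not called. When samples were scaled to equal FPKM sums, the median of all rows moved from -0.04 to 0.72. None of the 29 was then called lower and 13 were called higher, beside 668 lower and 5614 higher of all 12729 rows.

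**Figure D5:**
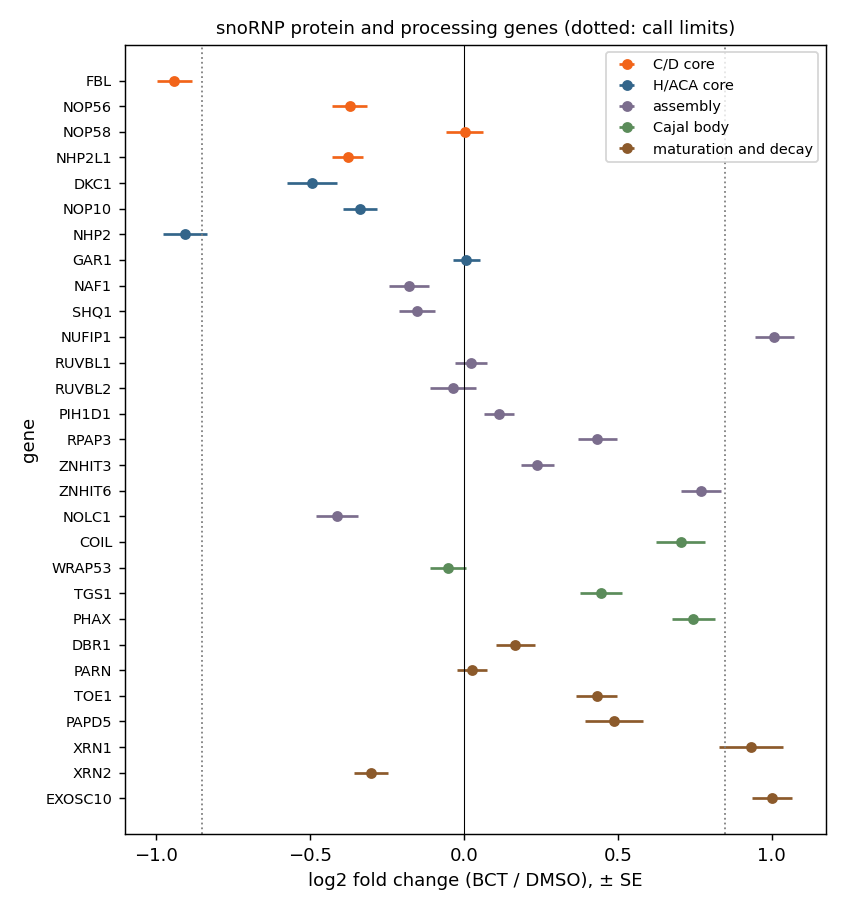
Log2 fold change (BCT over DMSO) with its standard error for 29 genes of core proteins, assembly, Cajal bodies, maturation and decay; dotted lines mark the fold limits of a call at -0.85 and 0.85. FBL and NHP2 lie beyond the lower limit and NUFIP1, XRN1 and EXOSC10 beyond the upper.

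Other small noncoding RNAs were mostly listed at 0 too. Of 40 rows of small nuclear, Y, signal recognition particle, vault, telomerase, RNase MRP and RNase P RNAs, 35 were listed at 0 in all samples and 3 were tested. RMRP, the RNA of RNase MRP, was at 33.2, 33.2 and 28.5 FPKM in the DMSO samples against 12.4, 10.0 and 13.4 FPKM with BCT (log2 fold change -1.40, standard error 0.11, adjusted p = 6.2e-06, limma). Every BCT sample of RMRP lies below every DMSO sample. RPPH1, the RNA of RNase P, was at 9.74, 10.2 and 7.04 FPKM against 4.63, 4.84 and 6.01 (log2 fold change -0.78, adjusted p = 0.00133, limma, not called). RNU6ATAC was not called. Of 1868 microRNA rows, 1789 were at 0 in all samples, and of 57 tested, 6 were called lower and 6 higher. Among all rows tested, 17.8% were called lower and 13.9% higher.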

How the data were processed

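The authors trimmed reads with Trimmomatic (0.38 in the submitters' processing notes), aligned them to hg19 with HISAT2, assembled transcripts with StringTie and deposited an FPKM value per gene and sample; the processing notes also name HTSeq. The 6 files hold 26255 rows in one order. The study gives an average read depth over its libraries and none per sample, and the files hold no counts.

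The members and gene lists were chosen with earlier results of these data known. Rows with a mean of at least 1 FPKM (12729) were fitted on log2(FPKM + 0.1) by limma (3.58.1, under R 4.3.3), whose eBayes step used a mean-variance trend. This scale understates changes of low rows that are above 0 in all samples. Where samples are at 0, the fitted change depends on the pseudocount and can exceed the change between group means. SNORA67, with means of 26.1 FPKM with DMSO and 7.92 FPKM with BCT, was fitted at a log2 fold change of -3.48. Adjustment was by Benjamini-Hochberg over all rows, and the fit was tested on simulated data. An exact test of 3 against 3 samples cannot give a p below 0.1 and was not used.

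Members were named by rule: the 5 highest means per class, up to 8 called in each direction per class whose groups did not overlap, those at 0 in 1 group and above 0 throughout the other, listed cleavage snoRNAs, their host genes, rows next to the threshold, listed protein genes and other small RNAs. SNORA4, SNORA22, SNORA43, SNORA51, SNORA64, SNORA84, SNORD68 and further members were named after their values were seen. All 385 symbols matched RefSeq, which gave lengths where a row shares its locus with another gene (62 of 71 members). Positions came from GENCODE release 44 lifted to GRCh37 by symbol (55 members) or from a member's own deposited span (3); 13 members were not placed.

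Steps were fitted per sample for lengths of 121 to 151 bases as a quadratic of the logarithm of the step in length. This procedure was set after the values were seen: the length range (from the shortest H/ACA member up), the choice of the largest step with at most 2 fewer whole values than the best, and the use of the deposited span as length where a row has its own locus. Alternatives covered the pseudocount, the filter, 3 scalings, the FDR, the variance model, the replicate block and each sample left out. Calls used an FDR of 0.05, the limit the study gives with its count of changed genes. The stricter limit of 0.01 in the study's methods was run as an alternative.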

Additional observations from a re-analysis of the deposited data

How the results depend on the processing

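The counts of called members depended on the settings. With the pseudocount of 1, 1 C/D and 0 SCARNA members were called lower, and the H/ACA median was -0.87 in place of -1.88. With the pseudocount of 0.01, 2 H/ACA members were called higher and that median was -2.98. With no filter, 1 member was called higher, 1 C/D member lower and 0 C/D members higher. With a mean of at least 5 FPKM, which left 32 members, 7 members, 5 of them H/ACA and 0 SCARNA, were called lower, and the C/D median was -2.59. At an FDR of 0.01, 8 members were lower (6 H/ACA, 1 C/D), 1 was higher and 0 C/D members were higher. Without the trend, 1 C/D member was called lower. With robust moderation, 6 members were lower (4 H/ACA, 1 C/D), 1 was higher and 0 C/D members were higher. Of all rows, 1848 were lower and 1402 higher with the pseudocount of 1, and 2302 and 1813 with 0.01. With no filter these were 2771 and 2657 of 21543 rows, and with the higher filter 1577 and 1150 of 9319. At an FDR of 0.01 they were 2256 and 1754 of 12729, without the trend 2262 and 1763, and with robust moderation 2253 and 1758. The main fit gave 2263 and 1764. The FDR of 0.01 and robust moderation thus took calls mainly from members.

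Scaling mattered. With equal FPKM sums, 35 members were called lower and 19 higher (24 and 10 for H/ACA, 10 and 9 for C/D), and 0 protein genes lower and 13 higher. Of all 12729 rows, 668 were called lower and 5614 higher with this scaling. The H/ACA and C/D medians were -1.52 and 0.076, against 0.72 for all rows. The limma fit then gave an infinite prior for its variances, so the calls of uneven rows are not reliable there. SCARNA12 (0.053), SCARNA15 (0.27), SCARNA22 (0.16), SNORA73B (0.11) and SNORD22 (0.14) then changed sign. With equal sums leaving out MIR6087, 4 members (3 H/ACA) were called higher, and 0 protein genes lower and 7 higher. Of all 12729 rows, 1208 were called lower and 3370 higher without MIR6087 in the sums. The C/D median was -0.15 against 0.34 for all rows, and SCARNA15 was at 0.072. The cause was not tested.

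Leaving out each sample in turn gave 9 to 20 members called lower and 1 to 2 higher, with 7 to 16 and 1 to 2 for H/ACA, 1 to 3 and 0 to 1 for C/D and 1 to 2 lower for SCARNA. Of all rows tested, 2148 to 2498 were then called lower and 1687 to 1935 higher. The lowest count of members called lower came without BCT replicate 2. The medians ranged from -2.03 to -0.996 for H/ACA from -2.03 to -0.38 for C/D and from -1.41 to 0.11 for SCARNA. The signs of SCARNA15 (-1.92 to 1.85), SCARNA22 (-2.67 to 1.69) and SNORA73B (-1.41 to 0.054) changed.

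Samples of the same number correlated at 0.116, 0.033 and 0.034 in their deviations from the group means. These values cannot exclude pairing, and the labels do not say whether the numbers pair the samples. With the replicate block, 18 members were called, among them all 16 called without it, and 2 H/ACA members were higher. Of all 12729 rows, 2266 were called lower and 1767 higher with the block. Of 366 values of the 22 named members under the alternatives, 308 kept direction and side of the threshold, 33 lost a call, 12 gained one and 13 changed sign.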
